A study of Mus musculus with 12 samples.

Results

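The dual-specificity phosphatase (Dusp) genes described here are Dusp1, Dusp2, Dusp4, Dusp5, Dusp6, Dusp7, Dusp10, Dusp11, Dusp16 and Dusp22. They were chosen by gene symbol, as 10 of the 55335 gene rows of each count table, and all 10 passed the filter on low counts in both assays. Thymocytes came from mice 6 weeks old, 3 of them wild type (WT) by their labels and 3 lacking the microRNA gene pair miR-181a/b-1 (knockout, KO); the labels give no strain, no sex and no other allele or agent, and do not say whether the deletion was limited to a cell type. Both RNA-seq and ribosome footprinting, which sequences the mRNA fragments covered by ribosomes, were run on each genotype, giving 12 libraries in 4 groups of 3. Cells of all groups were kept in 0.1 mg/ml cycloheximide, which arrests ribosomes on mRNA. The labels do not tie an RNA-seq library to a footprint library of the same mouse.

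Dual-specificity phosphatases of this family remove phosphate from both the threonine and the tyrosine that switch on a MAP kinase, and so end signalling through ERK, JNK or p38. Several of the genes are themselves switched on by MAP kinase signalling and act as negative feedback. In developing T cells, ERK activity downstream of the T cell receptor takes part in positive selection, and miR-181a is known for raising the receptor's sensitivity in thymocytes by holding down several phosphatases, Dusp5 and Dusp6 among them. Dusp11 and Dusp22 are atypical members: Dusp11 acts on RNA 5′ ends, and Dusp22 acts on signalling proteins that include the T cell kinase Lck.

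The microRNAs are shown first because the Dusp5 and Dusp6 mRNAs are published targets of the pair that was deleted. The mature sequences, 5′ to 3′ and taken from RefSeq (GRCm38.p6), have their seed, bases 2 to 8, in capitals.
miR-181a-5p: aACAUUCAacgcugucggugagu
miR-181b-5p: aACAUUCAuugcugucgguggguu
miR-181c-5p: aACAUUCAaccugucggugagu
miR-181d-5p: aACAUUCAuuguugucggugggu
The deleted Mir181a-1 and Mir181b-1 genes encode the first and second of these, at chr1:137966468-137966490 and chr1:137966650-137966673 on the plus strand. All 4 share the seed ACAUUCA, and no other of 1679 mature mouse microRNA names in that RefSeq table has it. The first is also encoded by Mir181a-2 and the second by Mir181b-2, outside the deleted pair. Transcript sequences were not used here, so no target site in a Dusp mRNA is given.

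RNA-seq libraries had 4479182 to 8180286 reads in genes and footprint libraries 4069968 to 17859770. The row of Mir181a-1 checked the genotype labels in footprints, at 132.6 to 165.9 CPM (read counts scaled to a common library total) in WT and 0.464 to 1.04 CPM in KO. In RNA-seq its 57 and 67 reads overlapped between genotypes and check nothing there, so RNA-seq directions rest on the labels. Summed over 9 genes, markers of thymocytes were at 19170 to 20040 CPM in WT footprints and 18610 to 19450 CPM in KO footprints. Same-numbered WT and KO libraries deviated from their group means in opposite directions: their deviations correlated at -0.98 to -0.96 over 9814 genes in RNA-seq and at -0.98 to -0.97 over 9902 genes in footprints, across genes, which are not independent replicates. All 30 same-numbered pairs of Dusp values in RNA-seq and all 27 in footprints, for the 9 genes with at least 50 reads a library on average, lay on opposite sides of their group means. The SDs and SEs below, taken over such mirrored values, may therefore not measure the spread between mice. For that reason each call is also given from a fit that takes the library number as a block (below, the block), and a gene is named as called where its edgeR false discovery rate (FDR, adjusted over all genes tested) was under 0.05.

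Of the 10 Dusp genes, Dusp6 and Dusp10 rose most in KO footprints, to 1.70-fold and 1.61-fold of WT, and these calls held with the block. Dusp2 and Dusp4 rose and Dusp1 fell in footprints without the block only. In RNA-seq Dusp10 rose and Dusp7 fell, again without the block only. That makes 5 of 10 called in footprints, where 17.6% of all 13509 genes tested were called. The 4 higher compare with 9.25% of genes called higher and the 1 lower with 8.34% called lower. With the block 2 of 10 were called, against 3.02% of genes. In RNA-seq 2 of 10 were called, against 6.91% of 13652 genes, 1 higher (3.48% of genes) and 1 lower (3.43%); with the block none was, against 0.806% of genes (edgeR; at an unadjusted p under 0.05, 2 of 10 against 9.71% of genes). The median log2 fold change of the 10 was 0.22 in footprints and 0.04 in RNA-seq, beside -0.01 and -0.00053 over all genes tested. Bulk libraries do not separate a change in the number of cells that hold a transcript from a change in RNA per cell.

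**Figure D1:**
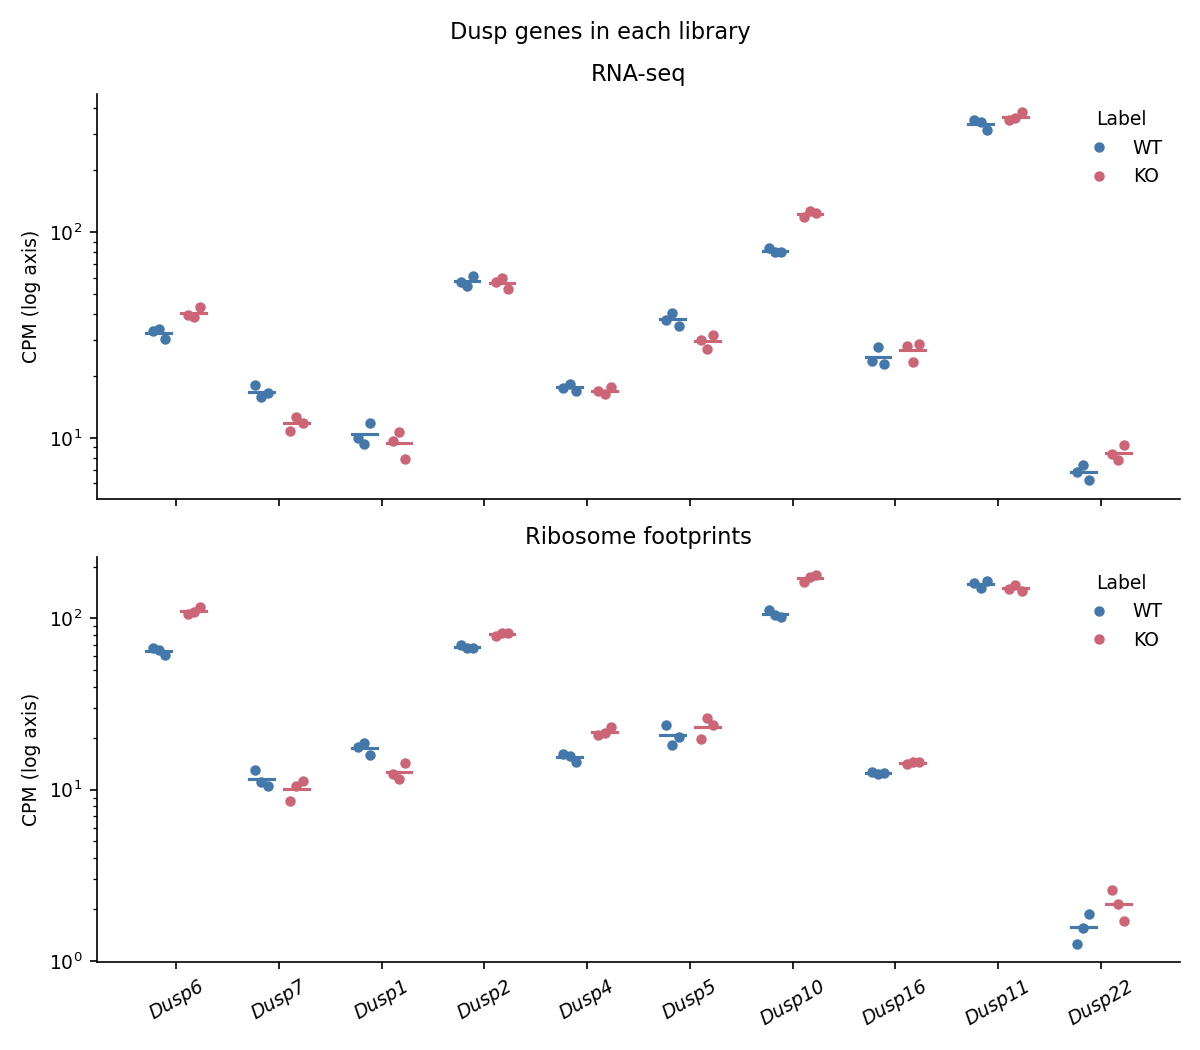
Normalised counts (CPM, log axis) of the 10 Dusp genes in each of 6 RNA-seq libraries (top) and 6 footprint libraries (bottom); points are libraries, bars are means of 3, blue WT and red KO. In footprints the KO points of Dusp6 (105.9 to 116.6 CPM) and Dusp10 (163.0 to 178.0 CPM) stand clear above the WT points.

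Dusp6, the cytoplasmic phosphatase that is selective for ERK and is induced by ERK signalling, was the Dusp gene with the largest footprint difference. In footprints Dusp6 (ENSMUSG00000019960.8) had 67.55, 65.45 and 61.03 CPM in the WT libraries 1, 2 and 3 and 105.9, 109.3 and 116.6 CPM in the KO libraries. All 3 KO libraries lay above all 3 WT libraries. The log2 fold change was 0.76 (SE 0.05, edgeR FDR 0.000665; with the block 0.77, SE 0.09, FDR 0.00185). In RNA-seq it had 33.23, 33.75 and 30.16 CPM in the libraries labelled WT and 39.50, 38.83 and 43.04 CPM in those labelled KO. The genotypes did not overlap there either, but the log2 fold change of 0.33 (SE 0.08) was not called (edgeR FDR 0.0556, with the block 0.560). The Dusp6 mRNA was thus 1.25-fold higher by its mean fitted ratio, and its footprints 1.70-fold.

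Dusp7, the close relative of Dusp6 that also acts on ERK in the cytoplasm, went the other way in RNA-seq. Its RNA-seq level was 17.96, 15.76 and 16.53 CPM in WT and 10.82, 12.55 and 11.85 CPM in KO, without overlap. It fell by 0.52 on the log2 scale (SE 0.09, edgeR FDR 0.0302), a call lost with the block (FDR 0.404), under DESeq2 (adjusted p 0.271) and on leaving out any 1 of the 6 libraries (edgeR FDR 0.0651 to 0.111). The reads behind it were few, 346 in WT and 222 in KO. In footprints Dusp7 ranged from 10.52 to 13.05 CPM in WT and from 8.54 to 11.29 CPM in KO, with overlap, and was not called (log2 fold change -0.22, SE 0.13, edgeR FDR 0.286).

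The inducible nuclear phosphatases are Dusp1, Dusp2, Dusp4 and Dusp5. Dusp5, which acts on ERK in the nucleus and is the second published target, was not called in either assay. It had 37.52, 40.45 and 34.98 CPM in RNA-seq of WT and 29.84, 26.99 and 31.68 CPM in RNA-seq of KO. All KO-labelled libraries were thus below all WT-labelled ones, and the log2 difference was -0.34 (SE 0.09, edgeR FDR 0.0727, and 0.546 with the block). In footprints it had 23.76, 18.13 and 20.37 CPM in WT and 19.85, 26.31 and 23.81 CPM in KO, which overlapped (log2 fold change 0.17, SE 0.14, edgeR FDR 0.452).

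Dusp2, a phosphatase induced in activated T cells, was not called in RNA-seq, at 54.81 to 61.43 CPM in WT and 52.77 to 60.14 CPM in KO (log2 fold change -0.04, edgeR FDR 0.809). Its footprints rose from 69.90, 67.08 and 67.28 CPM in WT to 79.23, 82.44 and 81.99 CPM in KO, with no overlap. The log2 fold change was 0.25 (SE 0.04, edgeR FDR 0.00733), and with the block the FDR was 0.185. Dusp4, a nuclear phosphatase of ERK and JNK, was not called in RNA-seq either: 16.94 to 18.27 CPM in WT and 16.34 to 17.59 CPM in KO (log2 fold change -0.04, edgeR FDR 0.860). Footprints of Dusp4 were at 16.20, 15.83 and 14.59 CPM in WT and at 20.78, 21.31 and 23.32 CPM in KO. That rise of 0.46 in log2 (SE 0.07, edgeR FDR 0.00723) was not called with the block (FDR 0.114).

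Dusp1, the immediate early member that acts mainly on p38 and JNK, was the only Dusp gene called lower in footprints. It had 17.80, 18.80 and 15.92 CPM in WT and 12.34, 11.56 and 14.24 CPM in KO, without overlap and from 815 and 369 reads. The log2 fold change was -0.51 (SE 0.10, edgeR FDR 0.0164). The call was lost with the block (FDR 0.149). It was also lost on leaving out WT library 2 (edgeR FDR 0.0519), KO library 1 (0.0584) or KO library 2 (0.0776). In RNA-seq Dusp1 had 9.35 to 11.85 CPM in WT and 7.86 to 10.65 CPM in KO, which overlapped (log2 fold change -0.18, SE 0.15, edgeR FDR 0.529). Dusp1, Dusp2 and Dusp4 thus belong to one group of inducible genes, yet their footprint differences did not share a sign.

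Dusp10 and Dusp16 act on JNK and p38, Dusp16 mainly on JNK. Dusp10 (ENSMUSG00000039384.8) was the Dusp gene that rose in both assays. In RNA-seq it had 84.10, 80.06 and 80.02 CPM in WT and 119.1, 126.0 and 124.5 CPM in KO. In footprints it had 111.5, 104.6 and 101.8 CPM in WT and 163.0, 174.0 and 178.0 CPM in KO. The genotypes were far apart in both assays, each WT library being below each KO library. The log2 fold change was 0.60 in RNA-seq (SE 0.05, edgeR FDR 0.00375; with the block FDR 0.0726) and 0.69 in footprints (SE 0.05, edgeR FDR 0.000787; with the block FDR 0.00258). Leaving out any 1 library kept the call without the block in each assay, at edgeR FDR 0.0193 to 0.0295 in RNA-seq and 0.00232 to 0.00738 in footprints. Dusp16 ranged from 12.42 to 12.65 CPM in WT footprints and from 14.19 to 14.48 CPM in KO footprints, without overlap, at a log2 fold change of 0.20 that was not called (SE 0.07, edgeR FDR 0.117). Its RNA-seq levels overlapped, at 22.86 to 27.48 CPM in WT and 23.44 to 28.69 CPM in KO.

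The atypical members were not called in either assay. Dusp11, counted with 4602 reads or more per genotype and assay, had 315.4 to 350.2 CPM in WT and 350.9 to 384.2 CPM in KO in RNA-seq. Its log2 fold changes were 0.12 in RNA-seq (SE 0.07, edgeR FDR 0.331) and -0.07 in footprints (SE 0.05, edgeR FDR 0.365). Dusp22 was the most thinly counted: 70 reads in WT and 68 in KO footprints, and 141 and 164 in RNA-seq. Its log2 fold changes of 0.33 in RNA-seq (SE 0.13, edgeR FDR 0.190) and 0.55 in footprints (SE 0.20, edgeR FDR 0.116) were not called.

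Over the whole set, KO and WT did not overlap for 6 of 10 genes in RNA-seq (4 with KO above, 2 below), where 30.9% of all genes tested did not. In footprints they did not overlap for 6 of 10 (5 above, 1 below), where 38.1% of all genes did not. The sets of 6 differed: Dusp6 and Dusp10 were in both, with KO above WT each time.

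**Figure D2:**
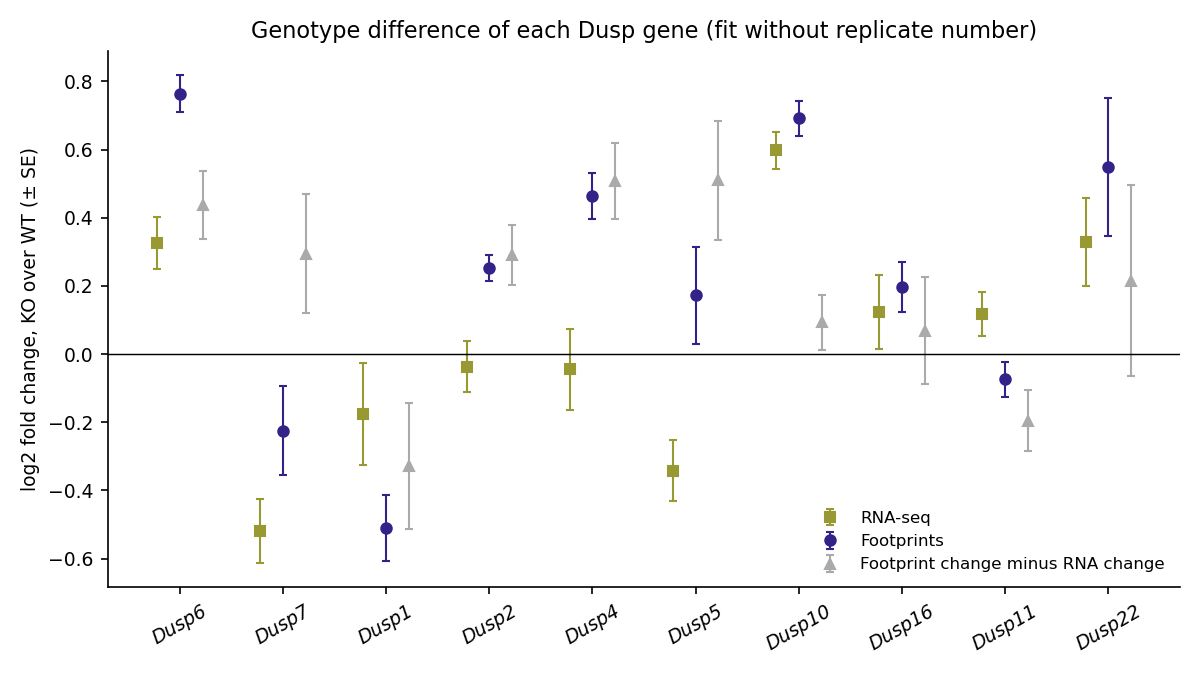
Fitted log2 fold change of KO over WT with its SE for each Dusp gene in RNA-seq (squares) and footprints (circles), and the footprint change minus the RNA change (triangles), from fits without the block. Dusp6 (0.76) and Dusp10 (0.69) lie highest in footprints, Dusp10 (0.60) lies highest in RNA-seq, and Dusp7 (-0.52) lies lowest there.

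To set the published targets against their relatives, the log2 level of Dusp5 or Dusp6 in each library was taken relative to the mean of the 8 other Dusp genes, a value that does not depend on library depth and is read here only between genotypes. In footprints Dusp6 stood at 1.49, 1.47 and 1.38 above its relatives in WT and at 2.02, 2.04 and 2.11 in KO. The difference was 0.61, with WT at 1.45 ± 0.06 and KO at 2.06 ± 0.05 (SD, n = 3; exact two-sided permutation test p = 0.1, the smallest that 3 against 3 allows). In RNA-seq the difference for Dusp6 was 0.27 (exact permutation p = 0.1, the smallest possible). Dusp5 differed from Dusp6 in sign in RNA-seq, at -0.40 (exact permutation p = 0.1, the smallest possible), and showed 0.01 in footprints (exact permutation p = 0.8). No difference could pass 0.05 in a design of this size. The test also takes the 6 libraries of an assay as exchangeable, which the mirrored same-numbered libraries may not be. The 8 relatives include Dusp10, which rose in both assays, and Dusp1 and Dusp7, whose log2 fold changes were below 0 in both. Their mean thus mixes changes of both signs, and the values here are relative to it.

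**Figure D3:**
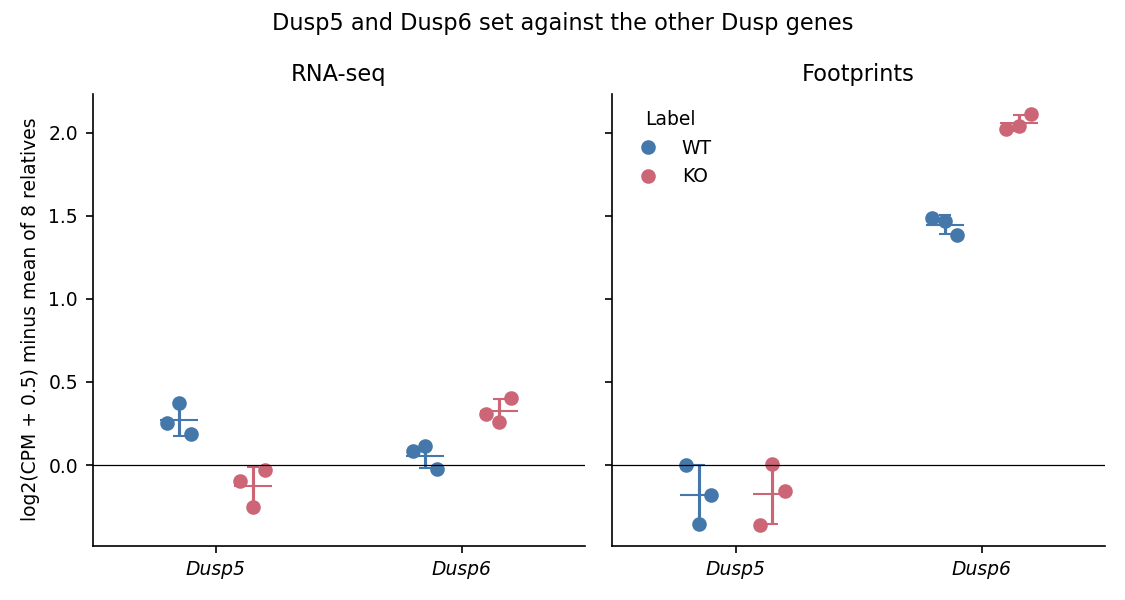
Level of Dusp5 and Dusp6 relative to the mean of 8 other Dusp genes, in log2 units with a pseudocount of 0.5 CPM, for RNA-seq (left) and footprints (right); points are libraries, horizontal bars means and whiskers SD of 3 libraries, blue WT and red KO. The 3 KO points of Dusp6 in footprints (2.02 to 2.11) lie above the 3 WT points (1.38 to 1.49), while those of Dusp5 overlap.

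Whether footprints changed beyond RNA was tested in a joint fit of the 12 libraries with an interaction term. By edgeR no Dusp gene was called, with or without a block. DESeq2 called none either, but it gave no adjusted p for some of them, Dusp1, Dusp4 and Dusp5 included. Those genes could not have been called by DESeq2. Of 11854 genes, edgeR called 0.211% without a block, 0.0169% with the library number as a block within each assay, and 0.143% with a block that takes an RNA-seq and a footprint library of the same genotype and number as 1 mouse, a pairing the labels do not state. Without a block the edgeR test gave 5 of the 10 an unadjusted p under 0.05, where 14% of all genes had one: Dusp4 (0.51, SE 0.11, FDR 0.0946), Dusp6 (0.44, SE 0.10, FDR 0.0951), Dusp2 (0.29, SE 0.09, FDR 0.178), Dusp5 (0.51, SE 0.18, FDR 0.233) and Dusp11 (-0.20, SE 0.09, FDR 0.353). With the block within each assay all 10 had an FDR of 0.998, and 3 of 10 had an unadjusted p under 0.05 against 3.28% of genes. With the block by presumed mouse the FDR was 0.0882 for Dusp6 and 0.1 for Dusp4. The value was above 0 for 8 of 10 genes, with a median of 0.25 against 0.01 over all genes tested, and was smallest in size for Dusp16 (0.07) and Dusp10 (0.09). Dusp2 and Dusp4 were thus called in footprints and not in RNA-seq, but the difference between assays did not pass the test.

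Within WT thymocytes the Dusp genes also differed in how many footprints they gave for their RNA. The log2 ratio of footprint CPM to RNA CPM, taken relative to the median of 11854 genes, ran from -1.91 for Dusp22 (percentile 9.16) to 1.20 for Dusp6 (percentile 82.4). Dusp1 (0.95), Dusp10 (0.58) and Dusp2 (0.43) lay above the median gene, Dusp4 (0.02) lay on it, and Dusp7 (-0.34), Dusp5 (-0.66), Dusp16 (-0.78) and Dusp11 (-0.89) lay below. In KO, Dusp6 was at 1.62 (percentile 89.8) and Dusp5 at -0.17 (percentile 44.7, from 30.5 in WT). These ratios are descriptions and were not corrected for the share of each transcript that is coding.

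The rest of the dual-specificity family was sparse. Of 19 further genes with a row, 8 passed the filter in each assay. None was called in RNA-seq (edgeR; 2 of 8 had an unadjusted p under 0.05, against 23.8% of all genes), and in footprints only Ssh1, a phosphatase of the actin regulator cofilin, was (-0.50 in log2, SE 0.14, edgeR FDR 0.0494, and 0.349 with the block). Of all genes tested in footprints 17.6% were called. Styx, a family member without catalytic activity, had a log2 fold change of 0.19 in RNA-seq (edgeR FDR 0.170). The median of the 8 was -0.08 in footprints.

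Among 15 genes of the ERK cascade, from Ras and its activators to the kinases below ERK, 4 rose in footprints and none fell. Over all genes tested 9.25% were called higher in footprints and 8.34% lower. The 4 were Ksr1, a scaffold that holds the kinases together (0.65 in log2, SE 0.11, edgeR FDR 0.0111, and 0.0491 with the block), Map2k1, a kinase of ERK (0.22, edgeR FDR 0.0399), Rps6ka3, a kinase activated by ERK (0.19, edgeR FDR 0.0273), and Rasgrp1, the Ras activator of T cells (0.19, edgeR FDR 0.0107). With the block Ksr1 alone was called, where 3.02% of all genes were. Ksr1 footprints went from 13.8 ± 1.54 to 22.5 ± 2.59 CPM (SD, n = 3). In RNA-seq Map2k1 rose (0.25, edgeR FDR 0.0445) and Hras, a Ras GTPase, fell (-0.56, edgeR FDR 0.0360), both without the block only. Over all genes 3.48% were called higher and 3.43% lower in RNA-seq without the block. The median of the 15 was 0.16 in footprints. Of 14 tested genes of the JNK and p38 cascades none was called in either assay (edgeR, with or without the block). At an unadjusted p under 0.05 there were 3 in RNA-seq, against 23.8% of all genes, and 1 in footprints, against 33.1%. The largest differences among the better counted ones (average log2 CPM 3 or more) were in RNA-seq, for the stress kinase Map3k5 (0.36, edgeR FDR 0.0835) and the p38-activated kinase Mapkapk2 (-0.29, edgeR FDR 0.151). Just under that level, and named after its values were seen, the p38 kinase Mapk11 differed by 0.37 in footprints (SE 0.16, edgeR FDR 0.157; 307 and 255 reads).

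Genes known to be induced by ERK signalling, the pathway that Dusp6 dampens, were listed as well. Of 18 tested in footprints 9 were called, 7 higher and 2 lower, where 17.6% of all genes were. The 7 were Egr3, Cd69, Etv5, Egr1, Nr4a1, Mcl1 and Ier2, with log2 fold changes from 0.98 for Egr3 to 0.46 for Ier2, and the 2 were Jun (-0.69, edgeR FDR 0.00474) and Myc (-0.19, edgeR FDR 0.00917). With the block 4 were called, where 3.02% of all genes were, and all 4 were higher: Cd69 (FDR 0.0138), Mcl1 (0.0308), Nr4a1 (0.0438) and Egr1 (0.0491). Egr1, a transcription factor, had 86.4 to 114.9 CPM in WT footprints and 137.5 to 180.4 CPM in KO footprints. Nr4a1, a nuclear receptor induced by the T cell receptor, had 84.4 to 100.2 and 114.5 to 136.9 CPM. Cd69, an early activation marker and itself a published target of miR-181, was the 1 gene of 17 tested in RNA-seq that was called there (0.64, edgeR FDR 0.0315, with the block 0.104). Of all genes tested in RNA-seq 6.91% were called. The list's median was 0.32 in footprints and 0.01 in RNA-seq. Only Egr3 was called for a footprint change beyond RNA (1.09, edgeR FDR 0.0294), and not with the block (0.998). Egr3 was thinly counted, with 129 WT and 168 KO reads in footprints and 228 and 195 in RNA-seq. Of 6 other published targets, with Cd69 counted again, 2 were called in each assay, both higher. Over all genes 3.48% were called higher in RNA-seq and 9.25% in footprints. The other 4 targets had values below 0 in each assay that were not called. The median of the 6 was -0.14 in RNA-seq and -0.03 in footprints. Besides Cd69, Ptpn22, a tyrosine phosphatase that restrains the T cell receptor, rose in both assays (0.50 in RNA-seq, edgeR FDR 0.0164; 0.42 in footprints, edgeR FDR 0.000769), in footprints also with the block (FDR 0.0280). The largest values below 0 were those of S1pr1, a receptor for exit from the thymus (-0.79 in RNA-seq, SE 0.19, edgeR FDR 0.0616), and Nrarp, a regulator of Notch signalling (-0.75 in RNA-seq, SE 0.17, edgeR FDR 0.0533), both named after their values were seen. Nrarp rests on 84 WT and 46 KO reads in RNA-seq, at an average log2 CPM of 1.83.

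**Figure D4:**
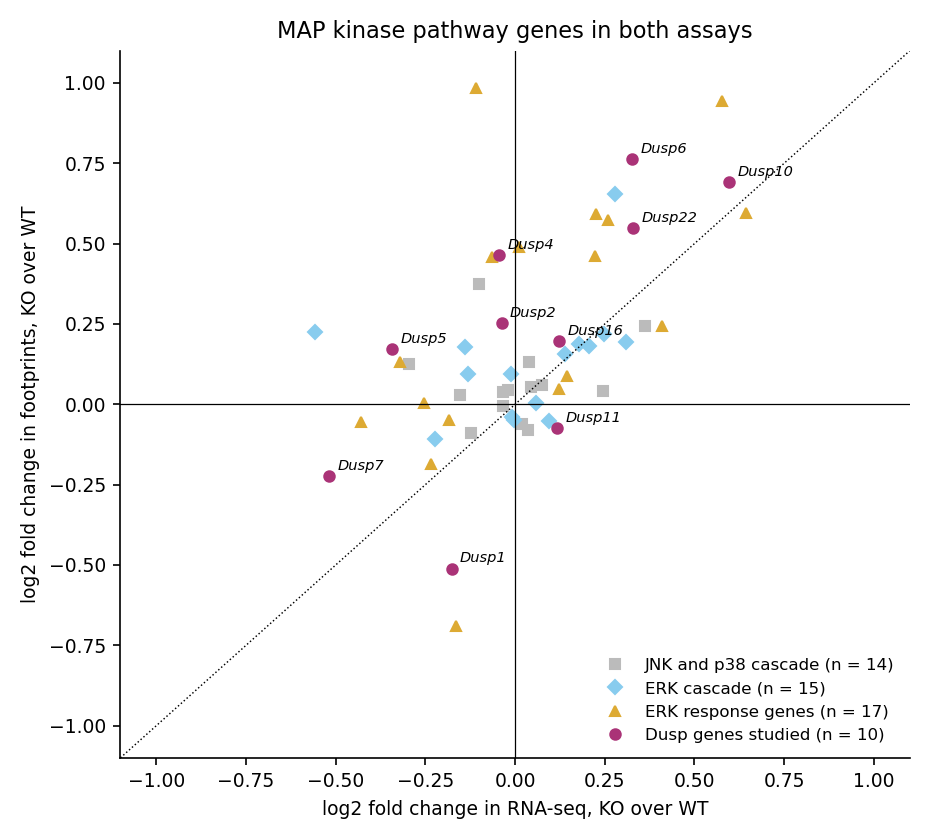
Log2 fold change of KO over WT in RNA-seq (horizontal) and in footprints (vertical) for each gene tested in both: the 10 Dusp genes (circles, named), 17 ERK response genes (triangles), 15 ERK cascade genes (diamonds) and 14 JNK and p38 cascade genes (squares); the dotted line marks equal change. Dusp10 (0.60 and 0.69) and Dusp16 lie near the dotted line. Dusp6 (0.33 and 0.76), Dusp2, Dusp4, Dusp5, Dusp7 and Dusp22 lie above it, and Dusp1 and Dusp11 below it.

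Markers of other cells in the thymus differed between genotypes for some of 6 lists. Summed over 5 genes, epithelial markers were at 75.51 to 82.29 CPM in WT footprints and 59.83 to 70.45 CPM in KO footprints, and at 18.87 to 22.18 and 14.21 to 17.34 CPM in RNA-seq. B cell markers, 5 genes, overlapped in both assays, at 43.45 to 57.62 CPM in WT footprints and 56.21 to 75.52 CPM in KO footprints, with Cd79b called higher in footprints. Erythroid markers were at 76.03 to 90.80 CPM in WT and 46.64 to 58.38 CPM in KO in RNA-seq and overlapped in footprints. The 3 natural killer and innate lymphoid markers summed to 2.09 to 2.29 CPM in WT footprints and 1.21 to 1.72 CPM in KO footprints, and to 1.38 to 1.59 and 0.237 to 0.873 CPM in RNA-seq. Sums of the 7 myeloid and dendritic markers and of the 5 stromal markers overlapped in both assays. Of single genes Siglech was called lower in both assays (-1.07 in RNA-seq, -1.03 in footprints), Flt3 lower in footprints (-0.50) and Pdgfrb higher in both (0.64 and 0.62). Also called lower were Krt5 and Hbb-bs in RNA-seq, and Epcam, Alas2 and the thinly counted Klrb1c in footprints. Of the calls in these 6 lists, only those of Siglech (FDR 0.0444) and Cd79b (FDR 0.0466) in footprints held with the block. Of the 9 thymocyte markers, 2 were called higher in footprints, Cd4 (0.57, edgeR FDR 0.00335) and Themis (0.23, edgeR FDR 0.0326). Another 3 were called lower there: Ptcra (-0.37, edgeR FDR 0.0293), Rag1 (-0.30, edgeR FDR 0.00866) and Lck (-0.12, edgeR FDR 0.0457). With the block Cd4 alone of the 9 was called in footprints (FDR 0.0121). None of the 9 was called in RNA-seq. Over all genes 9.25% were called higher and 8.34% lower in footprints, and 3.48% and 3.43% in RNA-seq. The part of these differences in the Dusp results was not tested. No marker in these 7 lists was at 0 in all libraries of an assay.

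By the likeness of their profile over the 6 footprint libraries, the genes nearest to Dusp6 were Laptm5 (r = 1.000), Dhx57 (r = 1.000) and Eno1 (r = 1.000), of 5329 genes with an average log2 CPM of 5 or more. Their log2 fold changes of 0.33, 0.39 and 0.44 were smaller than that of Dusp6. The points share their libraries and the mirrored deviations, and 619 genes had r above 0.9, so the likeness is a description of these libraries.

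The authors' deposited table for footprints lists Dusp6 (log2 fold change 0.72, adjusted p 5.21e-17), Dusp10 (0.66, adjusted p 2.80e-17), Dusp4 (0.40, adjusted p 0.0201) and Dusp2 (0.24, adjusted p 0.0279) as significant rises and Dusp1 (-0.40, adjusted p 0.0420) as a significant fall. The authors' deposited table for RNA-seq lists Dusp10 alone of the 10 (0.56, adjusted p 1.32e-06), with Dusp7 at -0.39 (adjusted p 0.233), Dusp6 at 0.29 (adjusted p 0.277) and Dusp5 at -0.29 (adjusted p 0.301).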

How the data were processed

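For each assay the authors deposited a table of read counts by Ensembl gene, named adjusted; no label says what was adjusted. The submitters' processing notes name FastQC, Bowtie2 2.5.1, STAR 2.7.10a, HTSeq 2.0.3 and DESeq2 1.40.2. Build, annotation and strandedness: not given in the sources used here. Without strand, reads of a gene and an antisense partner cannot be told apart. The 5 rows that name no gene were left out; they held 71.5% to 73.0% of counts in RNA-seq and 26.9% to 27.7% in footprints. The authors' comparison tables gave their log2 fold changes and adjusted p-values; 12 columns of per-library values in them were not used.

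The assays were fitted separately in R 4.3.3 by edgeR 4.0.16, and the interaction over 12 libraries. Settings were TMM, filterByExpr with a minimum count of 10, the quasi-likelihood test and Benjamini-Hochberg over all genes. The fits were also run on simulated counts drawn independently for each library. Those counts lacked the mirrored deviations of the real libraries, so that run does not check the SEs and FDRs given here. CPM uses the TMM-scaled total. The SE is the log2 fold change over the t value of its p. The design text names 3 mice per genotype. Alternatives were RLE factors, DESeq2 1.42.0, no filter, the replicate block and leaving out each library. Members, gene lists and markers were chosen with earlier results of these data known. All members are named; of each list, the genes called, or the 2 largest changes.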

Additional observations from a re-analysis of the deposited data

How the results depend on the processing

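Dusp6 and Dusp10 kept their footprint calls under RLE factors, DESeq2, no low-count filter, the replicate block and the omission of any 1 library. Dusp2 and Dusp4 kept theirs under all of these but the replicate block, at edgeR FDRs of 0.0483 and 0.0402 without KO library 2. With the replicate block, footprint calls went from 2376 to 408 over all genes and from 5 to 2 among the Dusp genes, RNA-seq calls from 943 to 110 and from 2 to 0, and interaction calls from 25 to 2 with the block within each assay but to 17 with a block by presumed mouse. Same-numbered WT and KO libraries deviated in opposite directions, so their numbers are linked in these counts. What the numbers stand for is not stated, and whether they pair mice was not tested. DESeq2 gave 538 calls in RNA-seq, 1 of them a Dusp gene, and 1261 in footprints, 5 of them Dusp genes. For the interaction it gave 85. The cause of these differences from edgeR was not tested. Leaving out 1 library gave 215 (without WT replicate 1) to 323 calls in RNA-seq, with 1 Dusp gene each. In footprints it gave 1035 to 1554 calls, with 4 or 5 Dusp genes each, and for the interaction 6 to 24. These fits have fewer samples, and the cause of the lower counts was not tested. Signs changed for uncalled values near 0: Dusp2 in RNA-seq ran from -0.082 to 0.0077, the interaction of Dusp16 from -0.015 to 0.12, and Dusp5 relative to its relatives in footprints from -0.081 to 0.10. Dusp22 rests on 70 and 68 footprint reads.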
